A study of Caenorhabditis elegans with 2 samples.

Results

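Glutathione is a small cysteine-containing peptide that cells use to neutralise oxidants and to tag reactive molecules for export. It is made in a pair of enzyme steps, by glutamate-cysteine ligase (gcs-1) and glutathione synthetase (gss-1), and its oxidised form is returned to use by glutathione reductase (gsr-1). Glutathione S-transferases join it to electrophiles, and the nematode family is much enlarged, with many tandem copies; in C. elegans the transferase gene gst-4 and the ligase gene gcs-1 are standard readouts of the stress factor SKN-1, the worm relative of mammalian Nrf. The genes described here are those whose WormBase symbol is gst, gstk or gsto followed by a number, or gcs-1, gss-1 or gsr-1. They numbered 52 of the 46748 gene identifiers in the count table: 49 transferase genes and 3 genes of synthesis and recycling.

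The RNA came from whole wild-type hermaphrodites, titled N2, aged 5 days and kept on heat-inactivated E. coli OP50, the usual laboratory food bacterium. There were 2 libraries of this 1 group, with 28164638 counts in replicate 1 and 31271070 in replicate 2, and no other diet, age or genotype to set them against. The replicate numbers are names only, and the labels do not tie either library to a culture of its own. The SDs thus measure the spread of these libraries, which may be technical. The p-values set a difference between the libraries against counting noise and hold no estimate of that spread. Markers fixed for intestine, muscle, neurons, epidermis and germline were detected in full, and 2 of 4 sperm markers were. A level below is CPM per kb: counts scaled to the library's own total (CPM), divided by the annotated exon length in kilobases. Detection required 10 counts or more in each library, and values are given for replicate 1 and replicate 2 in that order, then as the mean ± SD (n = 2).

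The glutathione genes spanned nearly silent to very abundant transcripts, and a pair of transferases dominated. Of the 52 genes, 36 were detected (69.2%), beside 62.5% of all 19641 protein-coding genes. Together the 52 held 0.0981% of the counts in replicate 1 (95% Wilson interval 0.0969 to 0.0992) and 0.104% in replicate 2 (0.102 to 0.105). Across all 52 genes 22 had a mean level under 1 CPM per kb, 15 lay between 1 and 10, 12 between 10 and 100, and 3 above 100. The detected genes had a median level of 6.06 CPM per kb, against 11.5 for the 12268 detected protein-coding genes, and 15 of the 36 were above that value. Over all 52 genes the median was 1.55 CPM per kb, against 1.28 over all protein-coding genes. In RNA from whole animals, fewer cells of a type and less RNA per cell cannot be told apart.

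**Figure D1:**
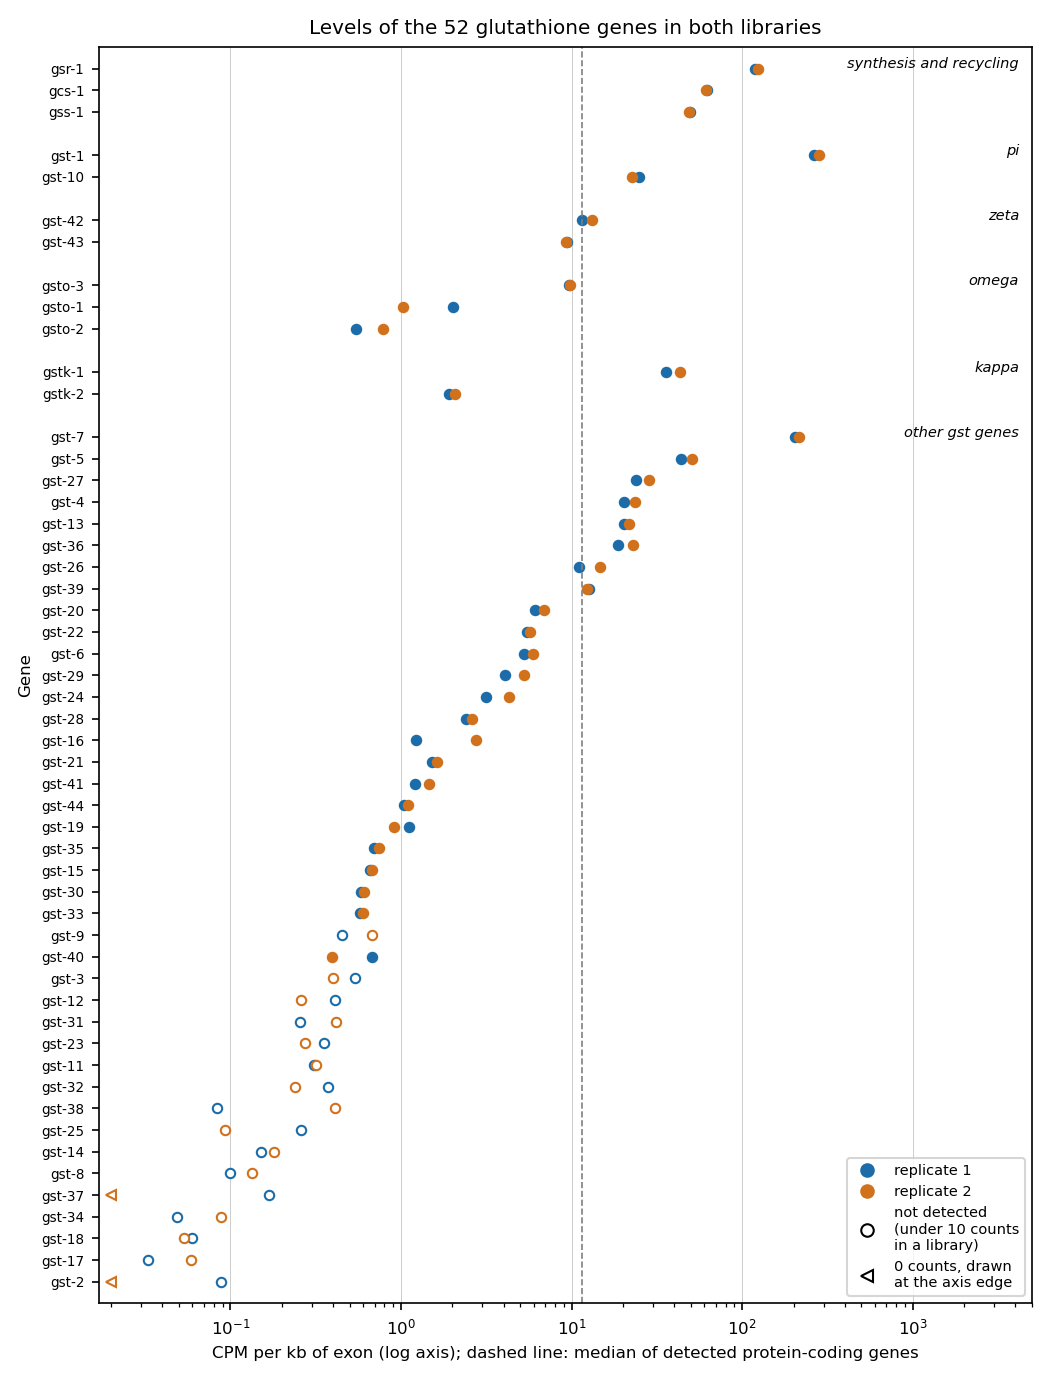
Level of each of the 52 genes (CPM per kb of exon, log axis) in replicate 1 (blue) and replicate 2 (orange), grouped by class; open points are genes not detected, triangles are libraries with 0 counts, and the dashed line is the median of the detected protein-coding genes, 11.5 CPM per kb. The genes of synthesis and recycling lie to the right of the line. The other gst genes run from gst-7, at a mean of 211, down to gst-2, at 0.0443 from 3 and 0 counts.

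All 3 genes of glutathione synthesis and recycling were well expressed and nearly equal in the libraries. The ligase gene gcs-1 (WBGene00001527, chromosome II, 9035562 to 9038301), whose product catalyses the rate-limiting step, had 4066 and 4478 counts, or 61.8 and 61.3 CPM per kb (61.6 ± 0.353). The synthetase gene gss-1 (WBGene00010941, chromosome II, 9414563 to 9416431) had 2265 and 2459 counts, or 49.6 and 48.5 CPM per kb (49.0 ± 0.778). The level of gcs-1 was thus 1.25 times that of gss-1 in replicate 1 and 1.26 times in replicate 2, a difference larger than the spread of either gene. Reductase transcripts stood above those of both synthetic enzymes. The reductase gene gsr-1 (WBGene00008117, chromosome III, 3650907 to 3652958) had 5303 and 6179 counts, or 118.7 and 124.6 CPM per kb (122 ± 4.15), which was 1.92 and 2.03 times gcs-1. That ratio depends on the exon length: gsr-1 came to 100.02 CPM per kb with the longer gene length implied by the authors' deposited RPKM, still above gcs-1 at 61.6. It also shares 93 exon bases with C46F11.5 on the opposite strand.

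The most abundant transferase transcript was gst-1, which encodes a pi-class enzyme. This gene (WBGene00001749, chromosome III, 9059331 to 9060181) had 5548 and 6589 counts, or 263 and 281 CPM per kb (272 ± 13.0), a level above that of 97.1% of the detected protein-coding genes. The other gene named as pi class, gst-10 (WBGene00001758, chromosome V, 2561690 to 2564645), whose product conjugates aldehydes from lipid peroxidation, had 506 counts in each library, or 25.0 and 22.5 CPM per kb (23.7 ± 1.76). The libraries thus put gst-1 10.5 and 12.5 times above its class partner.

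Members of the zeta, omega and kappa classes were all detected, at levels that differed widely within the omega and kappa classes. The omega and kappa classes here are the genes with gsto and gstk symbols, and class by sequence was not analysed. Zeta enzymes isomerise maleylacetoacetate in tyrosine breakdown, and their genes were close to each other: gst-42 (chromosome X) had 11.5 and 13.1 CPM per kb (12.3 ± 1.15), and gst-43 (chromosome I) had 9.43 and 9.32 CPM per kb (9.37 ± 0.0749). These ranges did not overlap. Kappa enzymes belong to mitochondria and peroxisomes, the peroxisomal one in worms being gstk-1. It had 783 and 1056 counts, or 35.6 and 43.2 CPM per kb (39.4 ± 5.40), while gstk-2 had 41 and 49 counts, or 1.92 and 2.07 CPM per kb (1.99 ± 0.104). In replicate 1 the gstk-1 level was 18.5 times that of gstk-2, and in replicate 2 it was 20.9 times. Of the exon bases of gstk-2, 44 also belong to the far more abundant elo-3 (2718 and 3195 counts) on the opposite strand.

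Omega enzymes carry a cysteine in the active site and act as thiol transferases and dehydroascorbate reductases. Of their genes gsto-3 was the highest, with 253 and 285 counts, or 9.66 and 9.80 CPM per kb (9.73 ± 0.0996). The gene gsto-1 had 46 and 26 counts, or 2.03 and 1.03 CPM per kb (1.53 ± 0.703), and gsto-2 had 13 and 21 counts, or 0.542 and 0.788 CPM per kb (0.665 ± 0.174). Replicate 1 was the higher library for gsto-1 and the lower for gsto-2. The level of gsto-1 is uncertain in a second way, since 52 of its exon bases also belong to the much more abundant kle-2 (4692 and 5088 counts) on the opposite strand.

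Among the other 40 gst genes, 24 were detected and gst-7 alone approached gst-1. This gene (WBGene00001755, chromosome II, 4882062 to 4883358) had 4309 and 5031 counts, or 205 and 216 CPM per kb (211 ± 7.49), and in both libraries it was below gst-1, which was 1.28 and 1.30 times higher. That ratio depends on the exon length. With the gene lengths implied by the deposited RPKM, gst-1 came to 248 and gst-7 to 212 CPM per kb, the same order with a smaller gap. Together gst-1 and gst-7 made up 62.1% and 60.8% of the summed level of the 49 transferase genes (754 and 818 CPM per kb), and with gst-5, gstk-1 and gst-27 the share was 75.8% and 75.7%. The gene gst-5 (chromosome II) came next in this group, with 892 and 1146 counts, or 43.7 and 50.5 CPM per kb (47.1 ± 4.85). With the gene length implied by the deposited RPKM it came to 34.2 CPM per kb, which put it below gstk-1 (41.6).

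A middle tier of 6 further gst genes had means from 12.5 to 26.2 CPM per kb. The gene gst-27 had 24.0 and 28.4 CPM per kb (26.2 ± 3.10). The SKN-1 reporter gene gst-4 (WBGene00001752, chromosome IV, 10142225 to 10143099) had 420 and 538 counts, or 20.4 and 23.5 CPM per kb (22.0 ± 2.22). It was thus well below the most abundant transferases, with gst-7 at 10.1 and 9.18 times its level, and 65 of its exon bases are shared with dhs-12 (1390 and 1597 counts) on the same strand. The gene gst-13 had 20.4 and 21.8 CPM per kb (21.1 ± 0.974), and gst-36 had 18.6 and 22.9 CPM per kb (20.8 ± 3.02). The gene gst-26 had 10.99 and 14.69 CPM per kb (12.8 ± 2.61), and gst-39 had 12.7 and 12.3 CPM per kb (12.5 ± 0.312). The libraries do not order these genes firmly: the ranges of gst-27, gst-10, gst-4, gst-13 and gst-36 overlapped from each to the next, as did those of gst-26, gst-39 and gst-42. Of the 35 neighbouring pairs among the 36 detected genes, 18 had overlapping ranges.

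At the low end of the detected genes were gst-30 (0.580 and 0.610 CPM per kb), gst-33 (0.579 and 0.602) and gst-40 (0.677 and 0.395), each resting on 11 to 17 counts a library. The 16 genes not detected were gst-2, gst-3, gst-8, gst-9, gst-11, gst-12, gst-14, gst-17, gst-18, gst-23, gst-25, gst-31, gst-32, gst-34, gst-37 and gst-38. They had 2 to 24 counts in the sum of both libraries, and 6 of them had no more than 3 counts in either. Their transcripts together came to 0.489% and 0.440% of the summed transferase level, and no difference among them was tested. A floor of 3 counts corresponded to 0.107 CPM in replicate 1 and 0.0959 CPM in replicate 2.

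Abundant and nearly silent transferase genes lay side by side in the genome. By a distance of at most 10 kb between genes, 25 of the 49 transferase genes fell into 4 clusters, 3 on chromosome II and 1 on chromosome IV. Chromosome II carried 26 of the transferase genes, and chromosome III carried 4, all detected, which included gst-1. In the first cluster (chromosome II, 4879891 to 4893573) 4 genes on the plus strand, each coding for 206 residues in 2 exons, had very unequal levels. The gene gst-6 had 5.24 and 5.97 CPM per kb, its neighbour gst-7 had 205 and 216, and the next gene, gst-8, had 0.0997 and 0.135 CPM per kb from 2 and 3 counts. The level of gst-7 was 39.2 and 36.2 times that of gst-6. Against gst-8 the counting interval of the ratio ran from 570 to 17008 in replicate 1 and from 548 to 7774 in replicate 2. With gst-9 (0.449 and 0.674 CPM per kb) included, gst-7 held 97.1% of the cluster's summed level.

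The cluster on chromosome IV (10139380 to 10143099) was as uneven. There gst-4 held 97.7% of the summed level of 3 genes within 3.72 kb, beside gst-3 with 11 and 9 counts and gst-2 with 3 and 0 counts. The remaining clusters were less dominated by their top gene. On chromosome II from 13608154 to 13630887, 9 genes on the minus strand summed to 14.5 CPM per kb. The highest, gst-20, had 6.13 and 6.89 CPM per kb and held 44.8% of that sum, and 5 of the 9 were detected. From 15163817 to 15185389 a further 9 minus-strand genes summed to 60.1 CPM per kb, of which gst-27 held 43.6%, and 6 were detected. In that cluster the 5 genes from gst-26 to gst-39 were all above 2 CPM per kb, and the 4 genes from gst-31 to gst-35 were all under 1. The genes gst-17 and gst-18 share 351 exon bases, so their few counts cannot be divided between them.

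**Figure D2:**
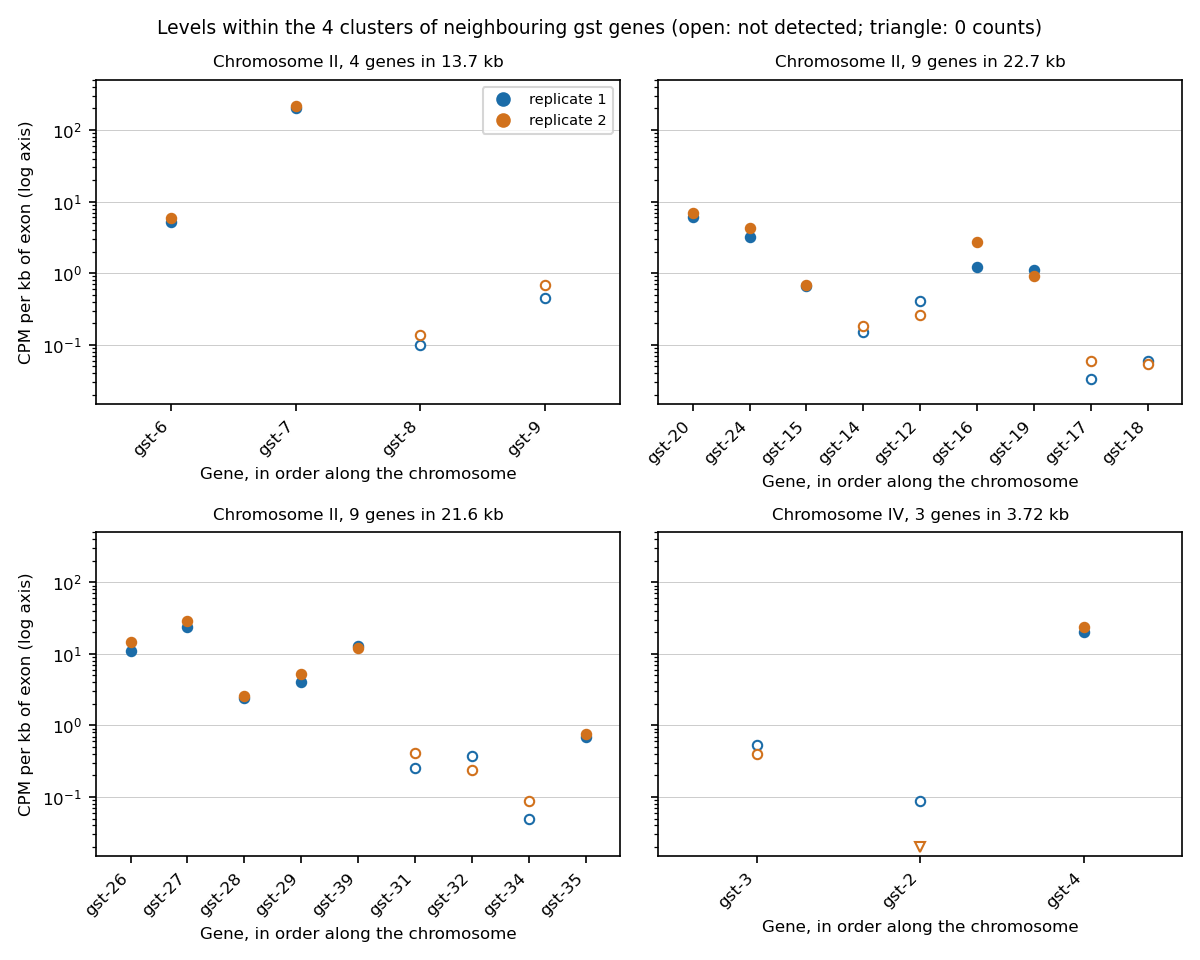
Level (CPM per kb of exon, log axis) of the genes of each cluster in their order along the chromosome, in replicate 1 (blue) and replicate 2 (orange); open points are genes not detected and a triangle is a library with 0 counts. The genes gst-7 and gst-4 stand far above their neighbours, and each 9-gene cluster holds detected genes beside undetected ones, with its highest gene at or next to the left end.

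Gene structure was more uniform than expression. All 22 genes of the chromosome II clusters had 2 coding exons, against 5 of the 27 transferase genes elsewhere, and 20 of the 22 coded for 206 to 218 residues. Proteins of 200 to 220 residues were encoded by 39 of the 49 transferase genes, with a median of 209 and a range from 174 (gst-17) to 309 (gsto-3). Within the clusters 14 of 25 transferase genes were detected, with a median over all 25 of 0.720 CPM per kb, and outside them 19 of 24, with a median over all 24 of 1.55. These counts are a description, since neighbouring copies can share reads and no source used here says how such reads were counted.

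Between the libraries most glutathione genes moved little. The ratio of replicate 1 to replicate 2, after TMM scaling, was put to an exact binomial test, two-sided and run on counts, with p adjusted by Benjamini-Hochberg over 14397 genes. This compares 2 libraries of the same group and holds counting noise only. A call needed an adjusted p under 0.05 and a ratio of 2-fold or more. Of the 44 glutathione genes whose counts summed to 10 or more, 1 was called, beside 0.75% of all genes tested. It was lower in replicate 1, beside 0.201% of all genes in that direction, and none was called higher in replicate 1, beside 0.549%. The called gene was gst-16, with 24 and 60 counts, or 1.22 and 2.74 CPM per kb. Its ratio was 0.455 (95% exact interval 0.268 to 0.732, exact binomial adjusted p = 0.0107). No other gene of its cluster was called. The omega gene gsto-1 went the other way, higher in replicate 1 with a ratio of 1.97 (1.203 to 3.348), and did not pass (exact binomial adjusted p = 0.0530).

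With no fold threshold, 6 of the 44 passed, beside 11.3% of all genes tested, and all 6 were lower in replicate 1, beside 5.66% of all genes in that direction. Besides gst-16 they were gst-1, gst-5, gst-26, gst-36 and gstk-1, with ratios from 0.758 (gst-26) to 0.946 (gst-1). None was higher in replicate 1 (beside 5.69% of all genes). Passing without a fold threshold depends on depth, for which these shares were not matched. Of the 36 detected genes 28 were lower in replicate 1, against 50.2% of all detected genes. So were 15 of the 20 with at least 100 counts in both libraries, a depth for which no share of all genes was taken. The 28 did not change with library totals or DESeq2 size factors, under which the share of all detected genes was 55.6% and 52.1%. The difference was small, with a median log2 ratio of -0.08 for the detected glutathione genes and -0.0007 for all detected genes. The 3 genes of synthesis and recycling did not pass, with log2 ratios of 0.03 for gcs-1, 0.05 for gss-1 and -0.05 for gsr-1. The fixed epidermal markers were all higher in replicate 1 (4 of 4, summed level 57.1 and 50.3 CPM per kb, of which col-19 held 53.6 and 48.6). The cuticle genes rol-6 and bli-1 were called between the libraries, with log2 ratios of 1.25 and 1.60 (exact binomial adjusted p = 0.0140 and 0.000332). Also higher in replicate 1 were the muscle markers (4 of 4, 251 and 232 CPM per kb) and the germline and oocyte markers (5 of 5, 4380 and 4175 CPM per kb). Of the germline markers pgl-1 was nearly equal, at 241.6 and 241.2 CPM per kb. The intestinal markers were split, with 2 of 6 lower in replicate 1 by the TMM-scaled ratio (summed level 11198 and 11253 CPM per kb). Most of that sum was vit-2 (4107 and 4184 CPM per kb) and vit-6. By level vit-6 was also lower in replicate 1, at 6230.71 and 6231.22 CPM per kb. Of the neuronal markers 3 of 4 were lower in replicate 1 (198 and 216 CPM per kb, of which snb-1 held 183 and 201). Among these unc-119 was nearly equal (12.1 and 12.3 CPM per kb), while unc-10 was higher in replicate 1 (0.854 and 0.575). Sperm markers were scarce in both (1.14 and 0.774 CPM per kb). The part of tissue content in the library difference was not tested.

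**Figure D3:**
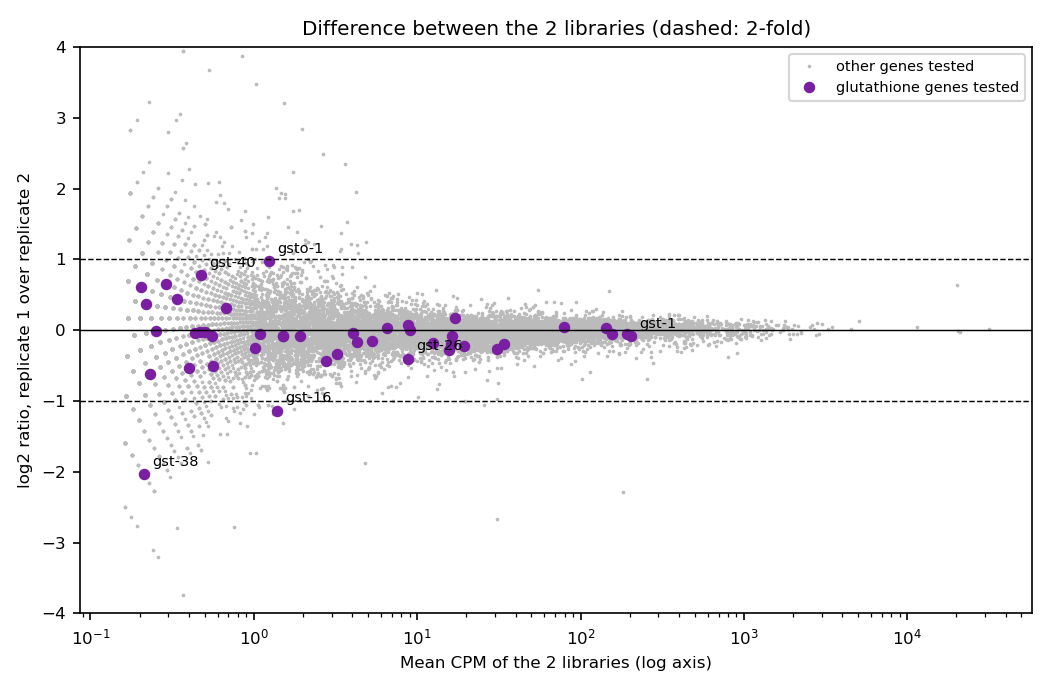
Log2 ratio of replicate 1 over replicate 2 after TMM scaling against the mean CPM (log axis), for the 44 glutathione genes tested (purple) and all other genes tested (grey; 10 lie beyond the axis); dashed lines mark a 2-fold difference. Most purple points lie slightly below 0, and the points beyond a dashed line are gst-16 and gst-38, the second from 2 and 11 counts.

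The genes around the glutathione pathway were all detected, 51 of 51 over 8 lists, beside 62.5% of all protein-coding genes. The lists were chosen with earlier results of these data known, so full detection describes that choice. None of their genes was called between the libraries at 2-fold, beside 0.75% of all genes. With no fold threshold 12 passed (23.5%), beside 11.3% of all genes: 4 were higher in replicate 1, beside 5.69% of all genes, and 8 were lower, beside 5.66%. Passing without a fold threshold depends on depth, and the lists and all genes were not matched for it. The highest and lowest genes given here are by the mean of the libraries at the annotated exon length. The lists differed in level. Glutathione peroxidases, which spend glutathione or thioredoxin on peroxides, had a median of 1.79 CPM per kb over 8 genes, with gpx-2 highest (37.2 and 44.9) and gpx-6 lowest by the mean (0.798 and 0.559), though gpx-4 was below it in replicate 1 (0.682) and gpx-8 with the implied length (0.366 against 0.688). Glutaredoxins and thioredoxin reductases, which keep protein thiols reduced, had a median of 47.6 CPM per kb over 7 genes, from trxr-2 (7.93 and 7.16), the mitochondrial reductase gene, to glrx-3 (58.7 and 66.4), which glrx-10 passed in replicate 2 (66.7). Peroxidases thus had the lower median as a list, though 3 of their genes were above 10 CPM per kb.

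Genes that supply the pathway were abundant at their top. Transsulfuration, which makes cysteine, had a median of 29.6 CPM per kb over 4 genes. Its highest gene, the cystathionine gamma-lyase gene cth-2, had 106 and 116 CPM per kb, and cbs-2 was lowest with 0.307 and 0.384. The NADPH supply that feeds the reductase had a median of 40.7 CPM per kb over 5 genes. The isocitrate dehydrogenase gene idh-1 led it with 220 and 216 CPM per kb, and the transhydrogenase gene nnt-1 was lowest with 2.59 and 3.08. These top genes were near or above gsr-1 itself.

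Export, aldehyde and tyrosine genes also had abundant members. The mrp genes code for ABC transporters, a family that exports glutathione conjugates, and had a median of 4.28 CPM per kb over 8 genes, with mrp-4 at 110 and 102 CPM per kb and mrp-8 lowest at 2.00 and 1.65. Reactive aldehyde removal had a median of 58.1 CPM per kb over 4 genes. The glutathione-dependent formaldehyde dehydrogenase gene adh-5 was highest in it (97.3 and 97.9 CPM per kb), and djr-1.2, a DJ-1 family gene whose enzyme class needs no glutathione, was lowest (0.563 and 0.691). Tyrosine breakdown, the route of the zeta enzymes, had a median of 32.7 CPM per kb over 4 genes, from the aminotransferase gene tatn-1 (12.2 and 18.4) to the dioxygenase gene hpd-1 (58.9 and 60.7). All 4 thus had a mean above those of gst-42 and gst-43, though the range of tatn-1 overlapped that of gst-42 (11.5 and 13.1).

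SKN-1 and its regulators had a median of 25.98 CPM per kb over 11 genes. The gene skn-1 was highest, with 112 and 106 CPM per kb, and the GATA factor gene elt-3 lowest, with 3.27 and 3.71. In these libraries the skn-1 transcript was thus present at about the level of gsr-1, above that of its reporter genes gcs-1 and gst-4. SKN-1 is controlled largely at the protein level, so the transcript level does not give its activity.

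**Figure D4:**
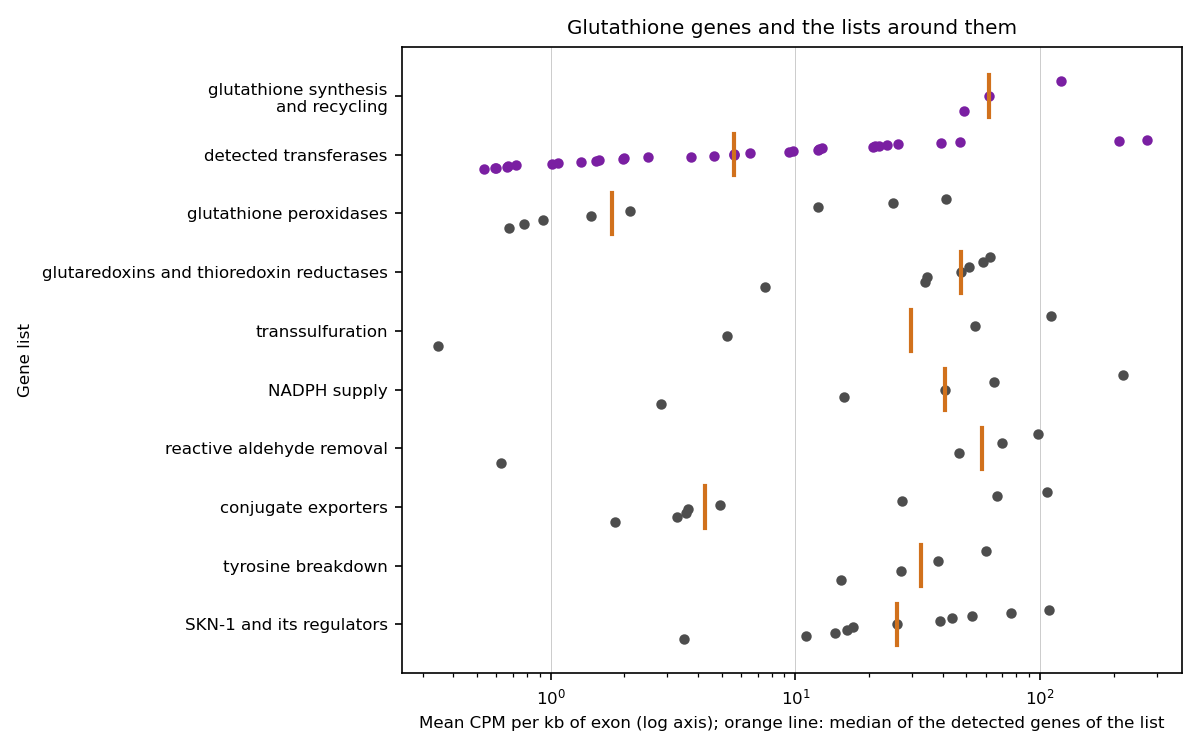
Mean level (CPM per kb of exon, log axis) of each gene of glutathione synthesis and recycling and each detected transferase gene (purple), and of each gene of the 8 lists around them (grey); orange lines are medians. The detected transferases run from 0.536 to 272 CPM per kb, a wider span than that of any other list drawn.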

How the data were processed

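The deposited raw counts per gene were made by the authors with STAR 2.4.1d and featureCounts 1.4.6-p4 on WBcel235, per the submitters' processing notes; the strand setting, the options and the release of the gene models were not stated there. The deposited RPKM values are the authors' own. Dividing counts by them showed that the read total used changed with the row in a cycle of 8 rows and was that of the library itself for 12.5% of rows, so RPKM served only for the implied gene length and as an alternative. Levels were computed here as CPM over union exon length (Ensembl 115, WBcel235, whose coordinates are given); symbols were matched for 43693 of 46748 identifiers. Libraries were compared with an exact binomial test in scipy 1.17.1, with TMM factors from edgeR 4.0.16, 0.5 added to counts in ratios and DESeq2 1.42.0 size factors as an alternative. The test was tried on simulated counts with planted changes and counting noise only. Such counts cannot show how it behaves on libraries with further spread. Intervals cover counting error only. Of the genes, those of synthesis and recycling, the pi, zeta, omega and kappa classes, others from 10 CPM per kb, the 3 lowest detected, those called and the extremes of each list were named by rule; further ones were named after their values were seen. Members and lists were chosen with earlier results of these data known. Protein likeness and promoter motifs, also planned, were not analysed here.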

Additional observations from a re-analysis of the deposited data

How the results depend on the processing

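The count of detected genes stayed within 1.5 times its value of 36 under every alternative run (26 to 50). The summed CPM of 1008 was 1007.94 with TMM totals and 1028.91 with totals without ribosomal RNA genes, against an SD of 38.7. Leaving out replicate 1 gave 1035, and leaving out replicate 2 gave 981. With 2 libraries such a step always moves the mean by less than the SD, so it tests nothing. The median level of the detected genes, 6.06 CPM per kb, was 6.89 with RPKM as deposited, 1.55 with no filter on low counts and 4.80 as CPM without division by length; leaving out a library gave 5.81 to 6.43. Between the libraries 1 glutathione gene was called with library totals (beside 111 of all 14397 genes tested) or DESeq2 size factors (110 of 14397). The number was also 1 with no filter (103 of 19855) or a 1.5-fold threshold (202 of 14397). With adjusted p alone 6 were called, beside 1634 of 14397. Overlapping neighbours numbered 18, and 25 with deposited RPKM. Of 24 named genes 10 moved by more than their spread with the implied length, by factors from 0.726 (gst-5) to 1.09 (gst-33); over all 24 the factors ran from 0.677 (gsto-1) to 1.26 (gst-40). Without replicate 1, gst-16 was 1.38 times its mean, and without replicate 2 it was 0.615 times. No paired analysis was possible because there is 1 group. Little can be said of the 16 undetected genes at their counts, and why those counts are low was not tested.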
